A study of Homo sapiens with 9 samples.

Results

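The 10 genes described here encode the subunits and inhibitors of NF-kappaB, namely NFKB1, NFKB2, REL, RELA, RELB, NFKBIA, NFKBIB, NFKBIE, TNFAIP3 and BCL3. They were taken by gene symbol from the annotation of an Illumina bead array, which gave 11 probes for these 10 genes among 22177 probes for 16577 named genes. NFKBIB had 2 probes and each other member had 1. Gene expression had been measured in 3 human leukaemia cell lines after 6 h with the histone deacetylase (HDAC) inhibitor SAHA at 5 µM, with the HDAC inhibitor MS-275 at 5 µM, or with no inhibitor. The lines were NB4, from an acute promyelocytic leukaemia, U937, a monocytic line, and K562, which the labels call an acute myeloid leukaemia line but which was derived from chronic myeloid leukaemia at blast crisis. Each of the 9 arrays held 1 line with 1 treatment, so the lines served as the replicates of a treatment (n = 3), and nothing replicated a treatment within a line. SAHA, also called vorinostat, is a broad HDAC inhibitor with a hydroxamic acid group, and MS-275, also called entinostat, carries a benzamide group and is selective for class I enzymes. Both were dissolved in DMSO, and the labels do not state whether the untreated cells received DMSO, so solvent and inhibitor cannot be told apart in the comparisons with untreated cells.

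NF-kappaB is a family of transcription factors that bind DNA as dimers. NFKB1 encodes a precursor that is cut to the subunit p50, NFKB2 encodes a precursor that is cut to p52, and RELA, RELB and REL encode the subunits that carry an activation domain. In resting cells the IkappaB proteins, among them those encoded by NFKBIA, NFKBIB and NFKBIE, hold the dimers in the cytoplasm until IkappaB kinase marks them for destruction. The uncut NFKB2 precursor also acts as an inhibitor and holds RELB. TNFAIP3 (A20) is a ubiquitin-editing enzyme that ends signalling to the kinase, and BCL3 is a nuclear IkappaB family member that binds dimers of p50 or p52. Several of these genes are themselves targets of NF-kappaB, which gives the pathway its feedback, and HDAC inhibitors are known to raise the acetylation of RelA.

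The stretches of 250 bases before the start sites of the 3 members that changed most with SAHA are shown first, because these genes are known targets of the factor they belong to. RefSeq promoter sequences of build GRCh38.p14 were matched for 8 of the 10 genes, giving 13 start sites. Each sequence runs 5′ to 3′ on the gene's strand and ends just before the start site, and capitals mark matches of the 10-letter NF-kappaB consensus motif on either strand. NFKB1 lies on the plus strand at chr4:102501109-102501358, NFKB2 on the plus strand at chr10:102395455-102395704 and NFKBIA on the minus strand at chr14:35404750-35404999.
NFKB1: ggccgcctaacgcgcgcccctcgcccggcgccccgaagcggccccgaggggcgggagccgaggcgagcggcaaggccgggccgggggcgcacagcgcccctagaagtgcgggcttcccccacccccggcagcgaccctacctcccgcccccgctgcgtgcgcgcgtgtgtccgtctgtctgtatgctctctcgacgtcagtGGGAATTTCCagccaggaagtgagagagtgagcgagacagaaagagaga
NFKB2: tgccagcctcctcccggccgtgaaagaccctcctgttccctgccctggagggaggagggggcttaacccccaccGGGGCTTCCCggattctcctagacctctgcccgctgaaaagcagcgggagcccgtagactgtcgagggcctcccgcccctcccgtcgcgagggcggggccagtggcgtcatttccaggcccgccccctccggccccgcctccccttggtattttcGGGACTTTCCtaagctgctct
NFKBIA: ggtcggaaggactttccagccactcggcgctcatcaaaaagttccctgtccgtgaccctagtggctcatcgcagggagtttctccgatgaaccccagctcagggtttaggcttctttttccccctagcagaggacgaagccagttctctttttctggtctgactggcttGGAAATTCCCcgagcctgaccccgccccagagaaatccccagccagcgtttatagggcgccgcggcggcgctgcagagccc
The match in NFKB1 began 49 bases before the start site on the gene's strand. The window of NFKB2 held matches that began 176 and 21 bases before the start site, both on the gene's strand. In NFKBIA the match began 81 bases before the start site and read on the opposite strand.

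Another start site of NFKB2, with its window at chr10:102394328-102394577, had overlapping matches at 107 and 106 bases before the start and a further one at 78. Matches were also found before the start sites of REL, NFKBIB and TNFAIP3, shown next as read on the gene's strand.
REL, 47 bases before the start: GGGAAATTCC
NFKBIB, 28 bases before the start: GGGAATTTCC
TNFAIP3, 67 bases before the start: GGAAAGTCCC
TNFAIP3, 55 bases before the start: GGAAATCCCC
In REL and NFKBIB the same letters also matched on the opposite strand, shifted by 1 base, and both TNFAIP3 matches read on the opposite strand. No match was found in the windows of RELA and BCL3, or in 1 window each of NFKB1, NFKB2 and NFKBIB. In all, 7 of 13 windows (53.8%) and 6 of 8 genes (75%) held the motif, against 1828 of 35116 windows (5.21%) and 1715 of 27305 genes (6.28%) in the whole RefSeq table. The GC-box letters GGGCGG, searched on both strands, were in 11 of 13 windows (84.6%), against 42.6% of all windows, and 0 of the NF-kappaB matches overlapped them. Genes with several start sites count their windows more than once, and a match describes letters in a window and not binding in these cells.

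**Figure D1:**
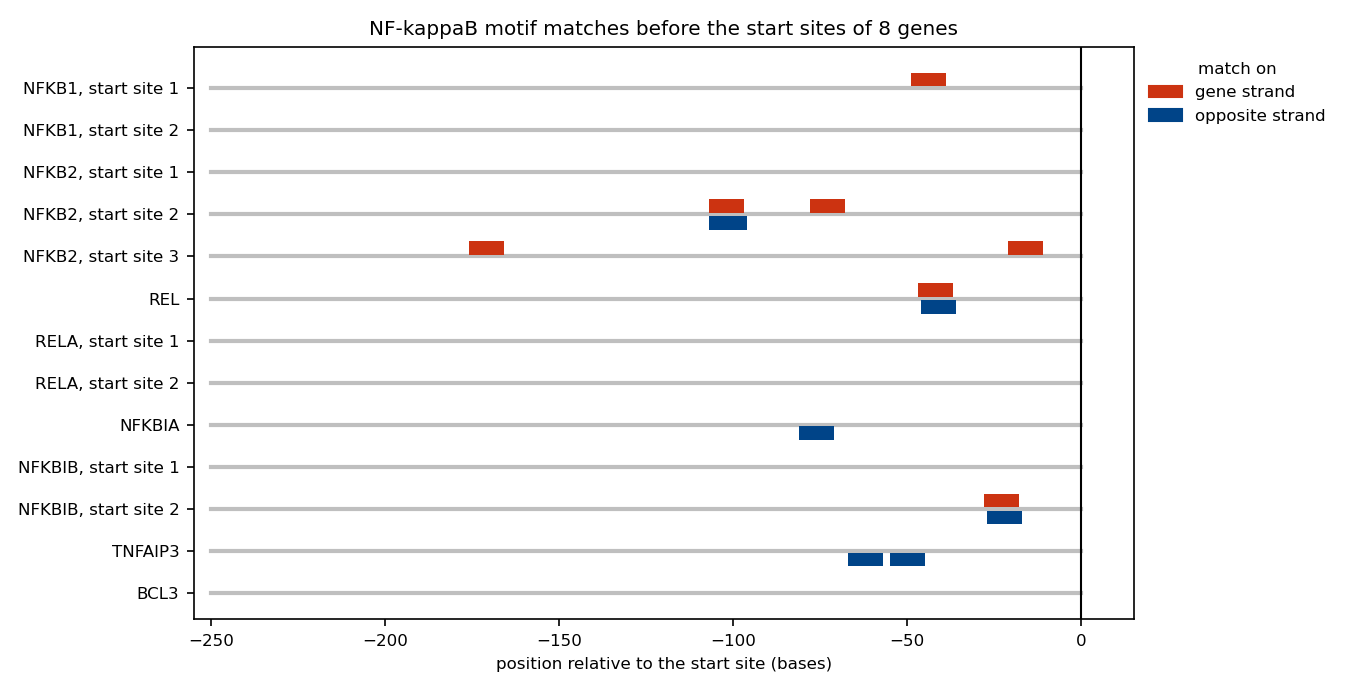
Position of NF-kappaB motif matches (x axis, bases relative to the start site) in the 13 windows of 250 bases of 8 genes (y axis, 1 line per start site). Bars above a line are matches on the gene's strand and bars below it matches on the opposite strand. Of the windows, 7 hold at least 1 match, and those of RELA and BCL3 and 1 window each of NFKB1, NFKB2 and NFKBIB hold none.

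Across the whole set, an array detected between 11826 and 12705 probes (53.3 to 57.3%), where detected means a detection p-value under 0.05 against the array's negative controls. Probes detected on at least 3 of the 9 arrays were tested, which left 13836 probes. These included 10 probes of 9 members, while the REL probe was detected on 1 of 9 arrays, that of U937 with SAHA, and was not tested. The 7 erythroid marker genes on the array were detected on every K562 array, against 1 of them in NB4 and 2 in U937. Of 6 promyelocyte genes, NB4 and U937 each showed 5 on all their arrays and K562 showed 1, and their summed linear signal was 41830 to 44510 in NB4 and 69970 to 74220 in U937, so this list does not set NB4 apart from U937. MPO was detected in NB4 alone, whereas ELANE averaged 5.56 in NB4 and 14.68 in U937 on the log2 scale, and the means of AZU1, CTSG and PRTN3 were also below those of U937 in NB4. U937 and NB4 each showed 4 of 5 monocyte genes on all their arrays, while K562 showed 1 of them. Epithelial or stromal marker genes were detected for 6 of 8 genes in K562 and for 3 of 8 in each of the other lines, and lymphocyte genes for at most 2 of 6.

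Levels below are log2 signals after background correction and quantile normalization, and levels of different probes are not compared. Changes are log2 differences with their standard error (SE) from a limma model of treatment and cell line, with p-values adjusted by the Benjamini-Hochberg method over all 13836 probes and a threshold of 0.05. A gene is said to have risen or fallen only where it passed that threshold.

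With SAHA, the genes of the p50 and p52 precursors moved in opposite directions, and the gene of the main IkappaB protein fell. NFKB1 had log2 signals of 9.70 in NB4, 7.83 in K562 and 10.01 in U937 with SAHA, against 11.50, 10.42 and 11.28 in the same lines untreated. Each SAHA array was lower than each untreated array. NFKB1 fell by 1.89 on the log2 scale (SE 0.244, 3.70-fold lower, limma adjusted p = 0.00292, n = 3 lines), with line values of −1.80 in NB4, −2.59 in K562 and −1.27 in U937. By size of fall NFKB1 ranked 57 of the 13836 probes.

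NFKB2 showed the opposite pattern. Its log2 signals were 8.47 in NB4, 7.60 in K562 and 9.03 in U937 with SAHA, against 6.39, 6.49 and 7.18 untreated. Every SAHA array was above every untreated array. NFKB2 rose by 1.68 (SE 0.203, 3.20-fold, limma adjusted p = 0.00251, n = 3 lines), with line values of 2.08 in NB4, 1.11 in K562 and 1.84 in U937, and stood at rank 157 of 13836 by rise.

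NFKBIA, which encodes IkappaB-alpha, had log2 signals of 10.67 in NB4, 9.86 in K562 and 10.70 in U937 with SAHA, against 12.12, 11.14 and 11.39 untreated. The SAHA arrays again lay below all untreated arrays. NFKBIA fell by 1.14 (SE 0.177, 2.21-fold lower, limma adjusted p = 0.00509, n = 3 lines), by 1.45 in NB4, 1.28 in K562 and 0.69 in U937. Without NB4 the fall was 0.99 and missed the threshold (limma adjusted p = 0.0612).

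The other 7 tested probes did not pass with SAHA. RELA, the subunit of the classical heterodimer with p50, had log2 signals of 7.54, 6.41 and 7.38 with SAHA in NB4, K562 and U937, against 7.58, 6.77 and 7.53 untreated, a difference of −0.19 (95% interval −0.537 to 0.166, limma adjusted p = 0.426). RELB, the partner of p52 in the alternative pathway, differed by 0.10 (95% interval −0.412 to 0.604, limma adjusted p = 0.798). The inhibitor gene NFKBIE differed by 0.32 (limma adjusted p = 0.375), BCL3 by 0.06 (0.875), and the NFKBIB probes ILMN_1690473 and ILMN_1674152 by −0.04 (0.897) and −0.10 (0.743). TNFAIP3 differed by 0.43 (SE 0.378, limma adjusted p = 0.47), with −0.26 in NB4, −0.14 in K562 and 1.68 in U937, so its mean sign rested on U937 and turned to −0.20 without that line. Altogether 1 member probe rose and 2 fell of 10 tested, that is 3 of 10, while 22.8% of all probes tested passed in this comparison (11.3% up, 11.5% down). The median change of the 10 member probes was 0.01, against −0.02 for all probes.

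**Figure D2:**
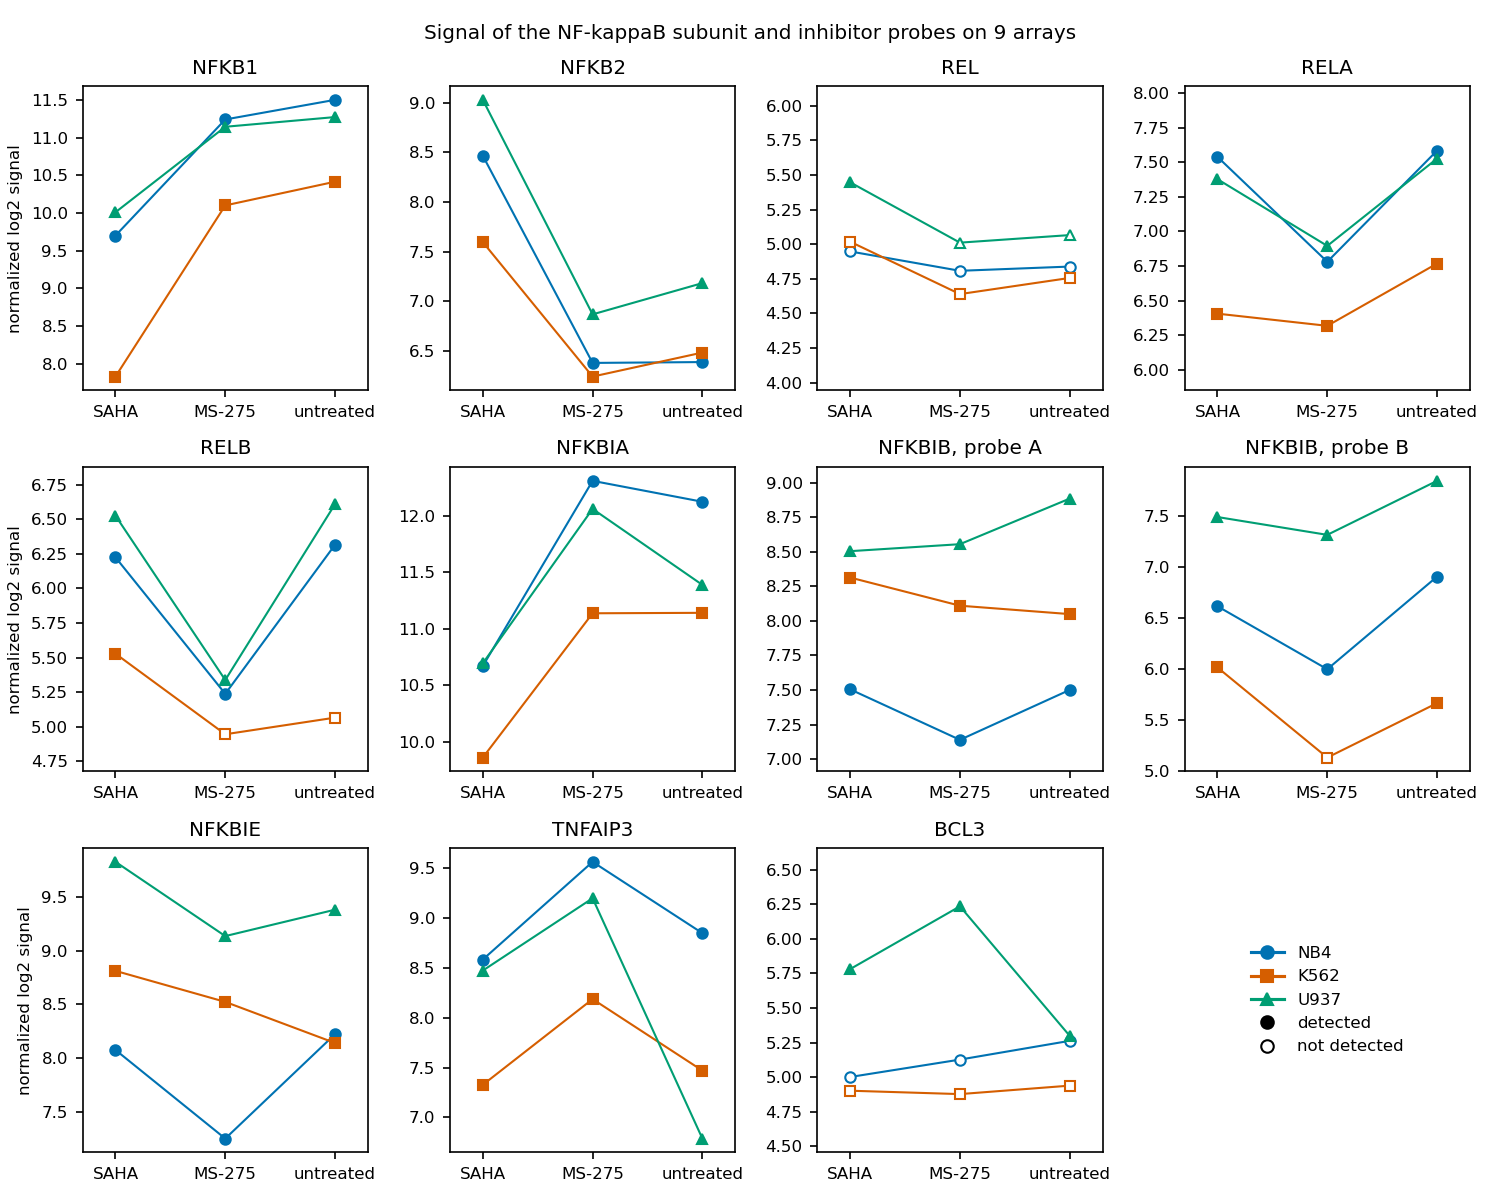
Log2 signal (y axis) of the 11 member probes on each of the 9 arrays, 1 panel per probe, by treatment (x axis: SAHA, MS-275, untreated), with points marked by cell line, open where the probe was not detected, and a scale for each panel (NFKBIB probe A is ILMN_1690473 and probe B ILMN_1674152). With SAHA the 3 points of NFKB1 (7.83 to 10.01) and NFKBIA (9.86 to 10.70) lie below the untreated ones, and those of NFKB2 (7.60 to 9.03) lie above them.

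With MS-275, at the same dose and time, 1 member passed. RELA had log2 signals of 6.78 in NB4, 6.32 in K562 and 6.90 in U937 with MS-275, against 7.58, 6.77 and 7.53 untreated. The groups overlapped, since untreated K562 lay below NB4 and U937 with MS-275, but within each line the MS-275 array was lower. RELA fell by 0.63 (SE 0.15, 1.55-fold lower, limma adjusted p = 0.0404, n = 3 lines), by 0.80 in NB4, 0.45 in K562 and 0.63 in U937. It passed in 6 of 12 alternatives. It missed the threshold whichever line was left out, with limma adjusted p = 0.185 for the fit lacking NB4, 0.086 for that lacking K562 and 0.195 for that lacking U937. It also missed it with an intensity trend and robust prior (0.0568), in a fit of only these 2 groups (0.0605) and with no replicate block (0.944). Without background correction its change was −0.40.

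RELB had log2 signals of 5.24, 4.95 and 5.34 with MS-275 in NB4, K562 and U937, against 6.32, 5.07 and 6.61 untreated, and neither K562 array detected it. The difference of −0.82 (SE 0.217) fell short of the threshold (limma adjusted p = 0.0526), with −1.08 in NB4, −0.12 in K562 and −1.27 in U937, and without K562 it was −1.17 and passed (limma adjusted p = 0.0439). TNFAIP3 had 9.56, 8.19 and 9.20 with MS-275, against 8.85, 7.47 and 6.79 untreated. Its value was higher within each line, and largest in U937 (2.41, against 0.71 in NB4 and 0.72 in K562). The mean of 1.28 (SE 0.378) did not pass (limma adjusted p = 0.0707), although it ranked 260 of 13836 probes by rise.

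NFKB1, NFKB2 and NFKBIA, which changed with SAHA, did not pass with MS-275. NFKB1 differed from untreated cells by −0.23 (95% interval −0.807 to 0.337, limma adjusted p = 0.55). The difference of NFKB2 was −0.19 (95% interval −0.663 to 0.287, limma adjusted p = 0.565) and that of NFKBIA was 0.28 (95% interval −0.131 to 0.698, limma adjusted p = 0.323). The NFKBIB probe ILMN_1674152 was at −0.66 (limma adjusted p = 0.0568) and its other probe at −0.21 (0.407), while NFKBIE was at −0.28 (0.461) and BCL3 at 0.25 (0.476). In total 0 member probes rose and 1 fell of 10, and 4 of 10 had an unadjusted p under 0.05, while 11.2% of all probes passed (3.99% up, 7.19% down). The median over the member probes was −0.22, against −0.03 over all probes. Scaling the arrays to equal medians in place of quantiles moved the median of all probes to −0.14 in this comparison.

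The compounds form 1 pair, a hydroxamic acid and a benzamide, and were set against each other at the same dose and time. NFKB1 was lower with SAHA than with MS-275. Its SAHA signals of 9.70 in NB4, 7.83 in K562 and 10.01 in U937 were all below its MS-275 signals of 11.24, 10.10 and 11.15. The difference was −1.65 (SE 0.244, 3.14-fold lower with SAHA, limma adjusted p = 0.00505, n = 3 lines), and without NB4 it was −1.71 and missed the threshold (limma adjusted p = 0.0513). NFKBIA was also lower with SAHA, where it had 10.67, 9.86 and 10.70, against 12.31, 11.14 and 12.06 with MS-275. The difference of −1.43 (SE 0.177, 2.69-fold lower with SAHA, limma adjusted p = 0.0031) had line values of −1.64 in NB4, −1.28 in K562 and −1.36 in U937.

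Both genes of the alternative pathway were higher with SAHA than with MS-275. NFKB2 had 8.47, 7.60 and 9.03 with SAHA, against 6.38, 6.24 and 6.87 with MS-275, and the groups did not overlap. Its difference of 1.86 (SE 0.203, 3.64-fold higher with SAHA, limma adjusted p = 0.00228) ranked 65 of 13836 by size of rise. RELB had 6.23, 5.53 and 6.53 with SAHA, against 5.24, 4.95 and 5.34 with MS-275, which were the lowest 3 of these 6 values. Its difference was 0.92 (SE 0.217, 1.89-fold, limma adjusted p = 0.0234), and it did not pass without NB4 (0.89, limma adjusted p = 0.131) or without U937 (0.78, 0.147). RELB was close to background, and without background correction its difference was 0.44.

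The other 6 member probes were not shown to differ between the compounds, with intervals that still allow differences. RELA was at 0.44 (95% interval 0.0909 to 0.794, limma adjusted p = 0.0735) and NFKBIE at 0.60 (0.0499 to 1.15, adjusted p = 0.109). TNFAIP3 was at −0.85 (95% interval −1.74 to 0.031, limma adjusted p = 0.147) and was lower with SAHA in 3 of 3 lines. The NFKBIB probes were at 0.56 (95% interval 0.139 to 0.977, ILMN_1674152, limma adjusted p = 0.0617) and 0.17 (−0.194 to 0.54, ILMN_1690473, adjusted p = 0.464), and BCL3 was at −0.18 (−0.689 to 0.319, adjusted p = 0.572). In this comparison 2 member probes were higher and 2 lower of 10, against 23.1% of all probes (13.1% higher, 9.97% lower). Both inhibitors were set against the same untreated arrays, so their changes from untreated cells are given side by side and not correlated.

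**Figure D3:**
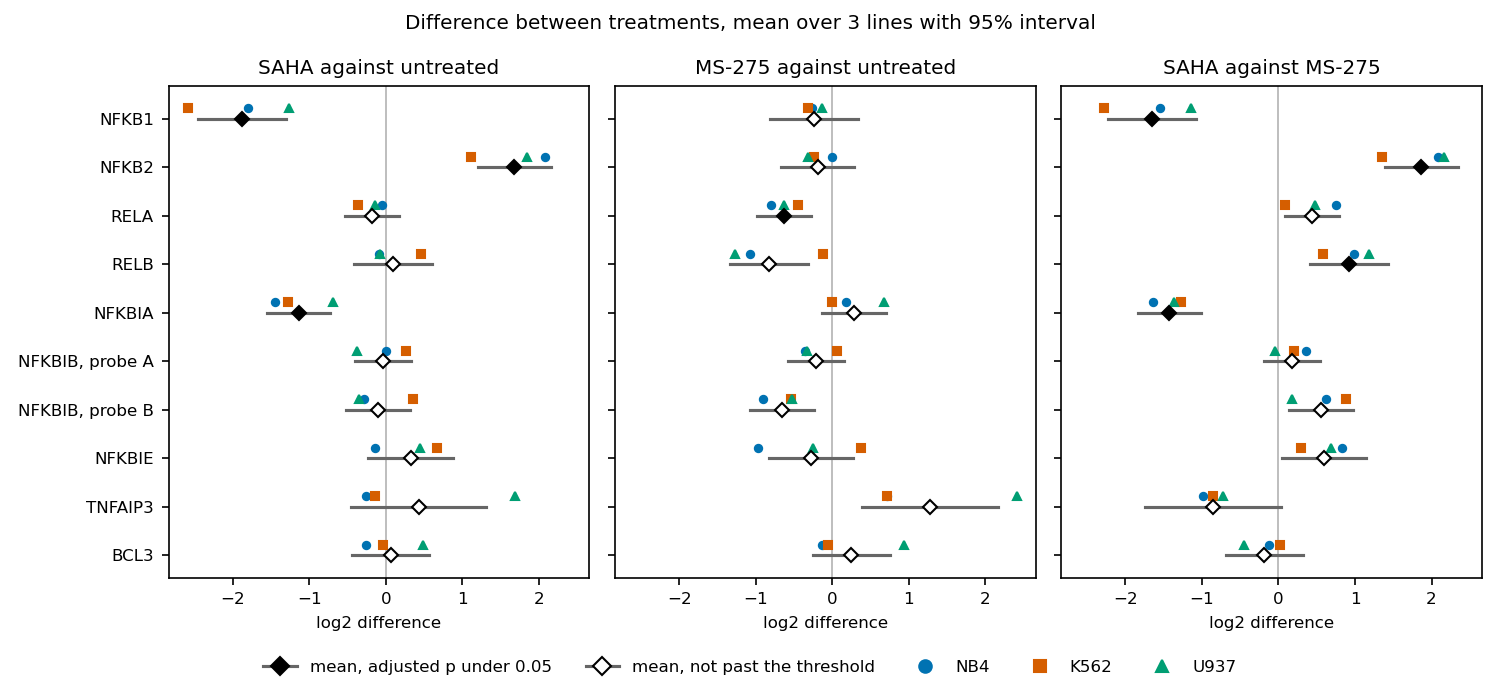
Log2 change (x axis) of the 10 tested member probes (y axis) for SAHA against untreated, MS-275 against untreated and SAHA against MS-275, 1 panel each on a shared scale. Diamonds are the limma estimates with 95% intervals, filled where they passed the adjusted threshold, coloured points are the 3 lines, and probes A and B of NFKBIB are ILMN_1690473 and ILMN_1674152. NFKB1 and NFKBIA lie to the left and NFKB2 to the right in both panels that hold SAHA.

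Whether the response depended on the line was tested with limma's F test for an interaction between line and treatment, both inhibitors taken as treated, in which the residual holds the difference between the compounds. By limma 0 of 13836 probes passed after adjustment (0% of probes) and 202 had an unadjusted p under 0.05, and of the 10 member probes 0 passed on either scale. For NFKB1, NFKB2 and NFKBIA the difference between the compounds widens the residual. The count of 0 therefore does not show that the lines responded alike. The lowest unadjusted p among the members was 0.14, for TNFAIP3, followed by BCL3 at 0.146. In untreated U937, TNFAIP3 was at 6.79, below every other array of that gene. BCL3 was detected on the U937 arrays alone, at 5.78 with SAHA and 6.23 with MS-275, against 5.30 untreated.

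Most members differed in level between the lines once the treatment means were taken out, and so did a large share of all probes. In these line comparisons the replicates of a line were its 3 arrays, 1 per treatment, with no treatment repeated within a line. Their p-values therefore do not measure the spread between repeat cultures of a line. The line differences are means over the 3 treatments and not levels of untreated cells. K562 had the lower level for most members. U937 was higher than K562 for 9 of 10 member probes and lower for 0, while 52.9% of all probes passed (26.4% higher, 26.6% lower). NB4 was higher than K562 for 6 and lower for 1, against 50.2% of all probes (26.9% higher, 23.3% lower). NB4 was higher than U937 for 0 and lower for 5, against 44.1% of all probes (23.1% higher, 21.0% lower). Both counts with U937 include BCL3, which entered the tests only through its U937 arrays.

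NFKB1 was higher in NB4 than in K562 by 1.37 (SE 0.244, limma adjusted p = 0.00275) and in U937 than in K562 by 1.36 (limma adjusted p = 0.00257). Between NB4 and U937 it differed by 0.01 (95% interval −0.567 to 0.578, limma adjusted p = 0.99). The order for RELA was alike, with NB4 above K562 by 0.80 (limma adjusted p = 0.00339) and U937 above K562 by 0.77 (0.00383), while NB4 and U937 differed by 0.03 (0.88). NFKBIA was above K562 by 0.99 in NB4 (limma adjusted p = 0.00279) and by 0.67 in U937 (0.0151), and RELB by 0.75 in NB4 (0.0234) and by 0.98 in U937 (0.0069). By these means K562 stood lowest for these genes, and NB4 and U937 did not differ beyond their spread. In untreated cells alone, U937 was above K562 by 0.86 for NFKB1, 0.76 for RELA, 0.25 for NFKBIA and 1.54 for RELB. With SAHA these differences were 2.18, 0.97, 0.83 and 1.00. Untreated NB4 against untreated U937 was 0.23, 0.06, 0.735 and −0.29 in the same order. The RELB difference of NB4 from K562 did not pass without the SAHA arrays (limma adjusted p = 0.0967) or the untreated arrays (0.132). NFKBIA in U937 against K562 was likewise lost without the SAHA arrays (limma adjusted p = 0.0753) or the MS-275 arrays (0.123), and RELB there without the SAHA arrays (0.0505). In K562, RELB was detected on the SAHA array alone, so its differences from K562 are uncertain in size. Over the alternatives they ranged from 0.36 to 0.97 in NB4 and from 0.48 to 1.27 in U937.

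NFKB2 and NFKBIE stood highest in U937. NFKB2 was higher in U937 than in K562 by 0.92 (limma adjusted p = 0.00674) and lower in NB4 than in U937 by 0.62 (0.0422), and NB4 and K562 differed by 0.30 (0.255). The NB4 and U937 difference of NFKB2 passed in 4 of 10 alternatives. It missed the threshold without the MS-275 arrays (0.119) or the untreated arrays (0.182), and also without background correction (0.0907), with an offset of 50 (0.0671), with no detection filter (0.0691) and with an intensity trend and robust prior (0.0502). NFKBIE, the gene of IkappaB-epsilon, was lower in NB4 than in U937 by 1.60 (SE 0.236, limma adjusted p = 0.00141). It was higher in U937 than in K562 by 0.96 (limma adjusted p = 0.011), a call lost without the SAHA arrays (0.0702). Its NB4 and K562 levels differed by −0.64 (0.0552), and that difference passed without the untreated arrays (0.0153).

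TNFAIP3 was higher in NB4 than in K562 by 1.34 (SE 0.378, limma adjusted p = 0.0211), a difference that did not pass without the SAHA arrays (0.0566) or the MS-275 arrays (0.102). Over all 9 arrays its U937 level was not separated from K562 (0.49 above it, limma adjusted p = 0.312). Nor was it separated from NB4, which was 0.84 higher (limma adjusted p = 0.111). These means hide differences by treatment. U937 against K562 was 1.145 with SAHA, 1.01 with MS-275 and −0.68 untreated. NB4 against U937 was 0.11, 0.36 and 2.06 in the same order. Without the untreated arrays TNFAIP3 in U937 was 1.08 above K562 and passed (0.00671). BCL3 was not well above background on any array of NB4 or K562, so its level there is a bound. It was at least 1.42-fold higher in U937 than in K562 (limma adjusted p = 0.0115) and at least 1.43-fold lower in NB4 than in U937 (limma adjusted p = 0.045). The probe met the detection filter only through the U937 arrays, where it is high, so these p-values cannot serve as support. In untreated cells alone, the difference of NB4 from U937 was −0.036. Neither BCL3 difference passed without the SAHA arrays (0.0666 against K562, 0.197 against NB4) or without the MS-275 arrays (0.0828 and 0.234). The NB4 difference also missed the threshold without background correction (0.0714), with an offset of 50 (0.0711) and with no detection filter (0.0768).

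The probes of NFKBIB, the gene of IkappaB-beta, disagreed on the lines. Probe ILMN_1690473 was lower in NB4 than in K562 by 0.78 (SE 0.157, limma adjusted p = 0.00492), whereas ILMN_1674152 was higher in NB4 by 0.90 (SE 0.179, limma adjusted p = 0.00448). Without the MS-275 arrays the lower call was lost (0.0561), and without the untreated arrays the higher call was lost (0.0548). Both probes were lower in NB4 than in U937, by 1.27 (limma adjusted p = 0.000626) and by 1.04 (0.00285). Between U937 and K562 the differences were 0.49 for ILMN_1690473 (limma adjusted p = 0.0323), lost without the MS-275 arrays (0.108) or the untreated arrays (0.249), and 1.95 for ILMN_1674152 (9.59e-05). In K562, ILMN_1674152 was close to background, at 5.66 untreated, 6.01 with SAHA and 5.13 with MS-275, where it was not detected. ILMN_1690473 was detected on all 9 arrays. The differences of ILMN_1674152 from K562 are thus uncertain in size, and over the alternatives that of NB4 ranged from 0.45 to 1.05. The value of NFKBIB in NB4 relative to K562 therefore depends on the probe, and the cause was not tested.

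The genes whose pattern over the 9 arrays was most like that of NFKB2, with line means taken out, were BCL2L12 (Pearson r = 0.9951), the cell cycle kinase CDK2 (r = 0.994) and LSS, an enzyme of cholesterol synthesis (r = 0.993). For NFKB1 they were LTBR (r = 0.9969), the signalling adaptor LCP2 (r = 0.9948) and the thymidylate synthase gene TYMS (r = 0.9936). These were the 3 highest values among probes detected on all 9 arrays, and the points share arrays and normalization, so the correlations are descriptions. LTBR encodes the lymphotoxin-beta receptor, which feeds the alternative pathway.

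Other genes of the pathway were described by lists, each gene by its brightest probe, with 12.0% of 11228 named genes higher and 11.8% lower with SAHA, 4.33% and 7.47% with MS-275, and 13.5% and 10.3% for SAHA over MS-275. Among receptors and ligands, 1 of 14 tested genes rose and 1 fell with SAHA. LTBR had log2 signals of 7.64 in NB4, 7.37 in K562 and 9.35 in U937 with SAHA, against 9.27, 9.53 and 10.36 untreated. It fell by 1.60 (SE 0.218, limma adjusted p = 0.00334), and was 1.31 lower with SAHA than with MS-275 (0.00724), a call lost without NB4. The gene that rose was TLR5, the flagellin receptor, at 0.55 (limma adjusted p = 0.0447), a call lost without any 1 of the lines. With MS-275, 2 rose and 0 fell, TLR5 by 1.46 (limma adjusted p = 0.00669) and TNFRSF1B, a receptor for TNF, by 1.13 (0.0432). TLR5 did not pass without NB4 or without U937, and TNFRSF1B missed the threshold whichever line was left out. For SAHA over MS-275, 0 were higher and 2 lower, LTBR and TLR5 (−0.91, limma adjusted p = 0.00839), the TLR5 call being lost without U937.

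Of 25 tested kinases and adaptors that lead to IkappaB destruction, 5 rose and 4 fell with SAHA. The largest falls were those of CUL1 (−1.53, limma adjusted p = 0.0197), a scaffold of the ligase that marks IkappaB, and TRAF3 (−1.36, 0.00263), which keeps the kinase of the alternative pathway low. IRAK1, a kinase below the interleukin-1 and Toll-like receptors, fell by 1.06 (limma adjusted p = 0.003), and their shared adaptor MYD88 fell by 0.77 (0.0167). Those that rose were MAP3K14 (0.72, 0.0228), which encodes the NF-kappaB-inducing kinase of the alternative pathway, RNF31 (0.68, 0.0247), the catalytic subunit of the linear ubiquitin ligase, BCL10 (0.61, 0.0386), MAP3K7 (0.52, 0.0324) and TAB3 (0.50, 0.0327). The TAB3 probe met the detection filter only through the SAHA arrays, where it is high, so its p-value cannot serve as support. TRAF3 and IRAK1 passed without each line in turn, while CUL1 missed the threshold without K562 or without U937, and MYD88 and all 5 that rose missed it whichever line was left out. The count of 9 became 3 without NB4, 2 without K562 and 2 without U937. With arrays scaled to equal medians 2 rose and 5 fell, and BCL10, RNF31 and MAP3K7 did not pass. The list median was 0.06, against −0.01 for all named genes.

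With MS-275, 0 of the 25 rose and 3 fell, namely RNF31 (−0.88, limma adjusted p = 0.0218), TRAF3 (−0.85, 0.0254) and MAP3K7 (−0.61, 0.0338). Without any 1 of the lines 0 of them passed by limma, with 8, 8 and 5 of the 25 at an unadjusted p under 0.05 when NB4, K562 and U937 were left out. With arrays scaled to equal medians 5 fell. Set against MS-275, SAHA had 5 higher and 2 lower. RNF31 had 9.27 in NB4, 8.75 in K562 and 8.91 in U937 with SAHA, against 7.27, 7.50 and 7.50 with MS-275, a difference of 1.56 (limma adjusted p = 0.00212) that passed without each line in turn. MAP3K7 (TAK1) was 1.13 higher (limma adjusted p = 0.00282), CHUK, an IkappaB kinase subunit, 1.05 higher (0.0164), and TRADD, an adaptor of the TNF receptor, 0.76 higher (0.0152). Against untreated cells neither CHUK (0.24 with SAHA, −0.81 with MS-275) nor TRADD (0.38 and −0.38) passed. TAB3, not detected with MS-275, was at least 1.56-fold higher with SAHA (limma adjusted p = 0.00928), but it was tested only through its SAHA arrays. The lower genes were IRAK1 at −1.04 (limma adjusted p = 0.00379) and MYD88 at −0.83 (0.014). MAP3K7 and IRAK1 passed without each line in turn, while MYD88 missed the threshold whichever line was left out. The CHUK and TRADD calls were lost without NB4 or without U937, and the TAB3 call without K562 or without U937. The count of 7 became 4 without NB4 and 3 without U937, and among the 22 genes whose probe was detected on all 9 arrays it was 11, with 6 higher and 5 lower.

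Among 14 other negative regulators, 1 rose and 1 fell with SAHA. CYLD, a deubiquitinase, had 7.61 in NB4, 5.85 in K562 and 6.21 in U937 with SAHA, against 6.06, 4.85 and 5.01 untreated, and was detected on 3 SAHA arrays and 1 untreated array. It rose by 1.25 (SE 0.195, limma adjusted p = 0.00514) and did not pass without U937. The CYLD probe met the detection filter only through the SAHA arrays, where it is high, so its p-values for SAHA cannot serve as support. The ubiquitin ligase gene ITCH, whose product works with A20, fell by 0.50 with SAHA (limma adjusted p = 0.0263), a call lost without any 1 of the lines. With MS-275, 0 rose and 3 fell, namely TOLLIP (−0.96, limma adjusted p = 0.046), ITCH (−0.95, 0.00988) and OTULIN (−0.69, 0.0262). Without any 1 of the lines 0 of them passed by limma, with 4, 4 and 3 of the 14 at an unadjusted p under 0.05 without NB4, K562 and U937. For SAHA over MS-275, 5 were higher and 0 lower, namely CYLD (1.56, limma adjusted p = 0.00314), TOLLIP (1.53, 0.00614), TAX1BP1 (0.81, 0.0193), OTULIN (0.47, 0.0464) and ITCH (0.45, 0.0394). CYLD was detected on 1 of 3 MS-275 arrays, so its size is uncertain, and over the alternatives it ranged from 0.86 to 1.74. The count of 5 became 1 without NB4, 2 without K562, 1 without U937 and 2 in a fit of only these 2 groups.

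Some known target genes of NF-kappaB other than the members rose with each inhibitor, and a few fell with SAHA. Of 26 tested, 5 rose and 2 fell with SAHA, and 8 rose and 0 fell with MS-275. IER3, an early response gene, had 11.12 in NB4, 11.85 in K562 and 11.01 in U937 with SAHA and 11.51, 11.98 and 11.67 with MS-275, against 8.05, 10.06 and 8.21 untreated. It rose by 2.55 with SAHA (limma adjusted p = 0.00246) and by 2.95 with MS-275 (0.0066), and the MS-275 call was lost without NB4 or without U937. IL1A, the gene of interleukin-1 alpha, was detected on all treated arrays and on no untreated array. It was at least 1.57-fold higher with SAHA (limma adjusted p = 0.00279) and at least 6.09-fold higher with MS-275 (0.00075). The MS-275 call was lost without U937. The IL1A probe entered the tests only through treated arrays, so these p-values cannot serve as support. The chemokine gene CXCL8 had 7.59 in NB4, 6.52 in K562 and 8.34 in U937 with SAHA, against 9.22, 7.58 and 10.24 untreated, and fell by 1.53 (limma adjusted p = 0.0166), a call lost without NB4 or without K562. CFLAR, an inhibitor of death receptor signalling, fell by 1.37 with SAHA (limma adjusted p = 0.0134), a call lost in the same way.

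With SAHA, SDC4 rose by 1.58 (limma adjusted p = 0.00412) and CD83 by 0.82 (0.0061), and the fifth gene was SOD2 at 0.78 (0.0121). The SAHA calls of CD83 and SOD2 were lost without NB4 or without U937. SDC4 and CD83 also rose with MS-275, by 1.645 (limma adjusted p = 0.0114) and 0.95 (0.0116). Between the compounds they were not shown to differ (−0.06 and −0.12, limma adjusted p = 0.868 and 0.545). Without NB4 or without U937 neither MS-275 call passed, and that of CD83 was also lost without K562. With MS-275 the further named genes were IL1B (2.74, limma adjusted p = 0.0152), the gene of interleukin-1 beta, and the chemokine gene CCL2 (1.94, 0.0493). IL1B did not pass without NB4 or without U937. CCL2 missed the threshold whichever line was left out, and passed in 3 of 11 alternatives. The MS-275 count of 8 became 1 without NB4 and 0 without U937 by limma, with 9 of the 26 at an unadjusted p under 0.05 in the last case. It became 5 with no detection filter, with probes detected on all 9 arrays (14 genes) and in a fit of only these 2 groups. The SAHA count of 7 became 4 without NB4. For SAHA over MS-275, 0 were higher and 7 lower, among them CXCL8 (−2.21, limma adjusted p = 0.00531), CXCL10 (−2.10, 0.0422), IL1A (−1.96, 0.00175) and CCL2 (−2.96, 0.00756). CXCL8 and IL1A passed without each line in turn, and the CCL2 call was lost without NB4. CXCL10 passed in 5 of 12 alternatives and was lost without NB4 or without U937, and its K562 value was −0.278. CCL2 was detected on 1 of 3 SAHA arrays and on 3 of 3 MS-275 arrays, so its size is uncertain, and over the alternatives it ranged from −3.71 to −2.14. The count of 7 became 3 without NB4, 3 without U937 and 3 with no detection filter. The list median was 0.13 with SAHA, 0.79 with MS-275 and −0.68 for SAHA over MS-275, against −0.01, −0.02 and −0.01 for all named genes. Some marker genes of cell types also passed. With SAHA against untreated cells the lowest limma adjusted p among the 5 monocyte genes was 0.272, that of ITGAM. With MS-275, 1 of 5 rose (ITGAM, by 1.92, limma adjusted p = 0.0212), and 3 of 5 (ITGAM, CSF1R and LYZ) were lower with SAHA than with MS-275. The summed linear signal of the monocyte genes ran from 1659 to 4977 in NB4, 1010 to 1622 in K562 and 8236 to 14920 in U937. Of the promyelocyte genes, CEBPE fell with SAHA (−1.71, limma adjusted p = 0.00723) and was lower with SAHA than with MS-275 (−1.80, 0.00691). Of the epithelial and stromal genes, PECAM1, also a myeloid and platelet gene, rose with MS-275 (1.10, limma adjusted p = 0.0279) and was lower with SAHA than with MS-275 (−1.85, 0.00301). The part of these genes in the target gene values was not tested.

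Genes whose products acetylate or deacetylate RelA changed in 3 of 8 cases with SAHA, 1 up and 2 down. HDAC3, which removes acetyl groups from RelA, had 12.00 in NB4, 11.73 in K562 and 11.60 in U937 with SAHA, against 10.64, 10.89 and 10.52 untreated, and rose by 1.09 (SE 0.142, limma adjusted p = 0.00298). The acetyltransferase genes CREBBP and EP300 fell by 1.09 (limma adjusted p = 0.00193) and by 0.75 (0.00657), and the EP300 call was lost without NB4 or without U937. With MS-275, 1 of 8 fell, EP300 by 0.80 (limma adjusted p = 0.0142), a call lost without any 1 of the lines. Against MS-275, SAHA gave a higher HDAC3 (0.82, limma adjusted p = 0.00838), lost without NB4 or without U937, and a lower CREBBP (−0.86, 0.00396), lost without U937. The list median was −0.36 with SAHA and −0.18 with MS-275. The arrays measure RNA, so neither processing of the precursors nor the place of the proteins in the cell was measured.

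**Figure D4:**
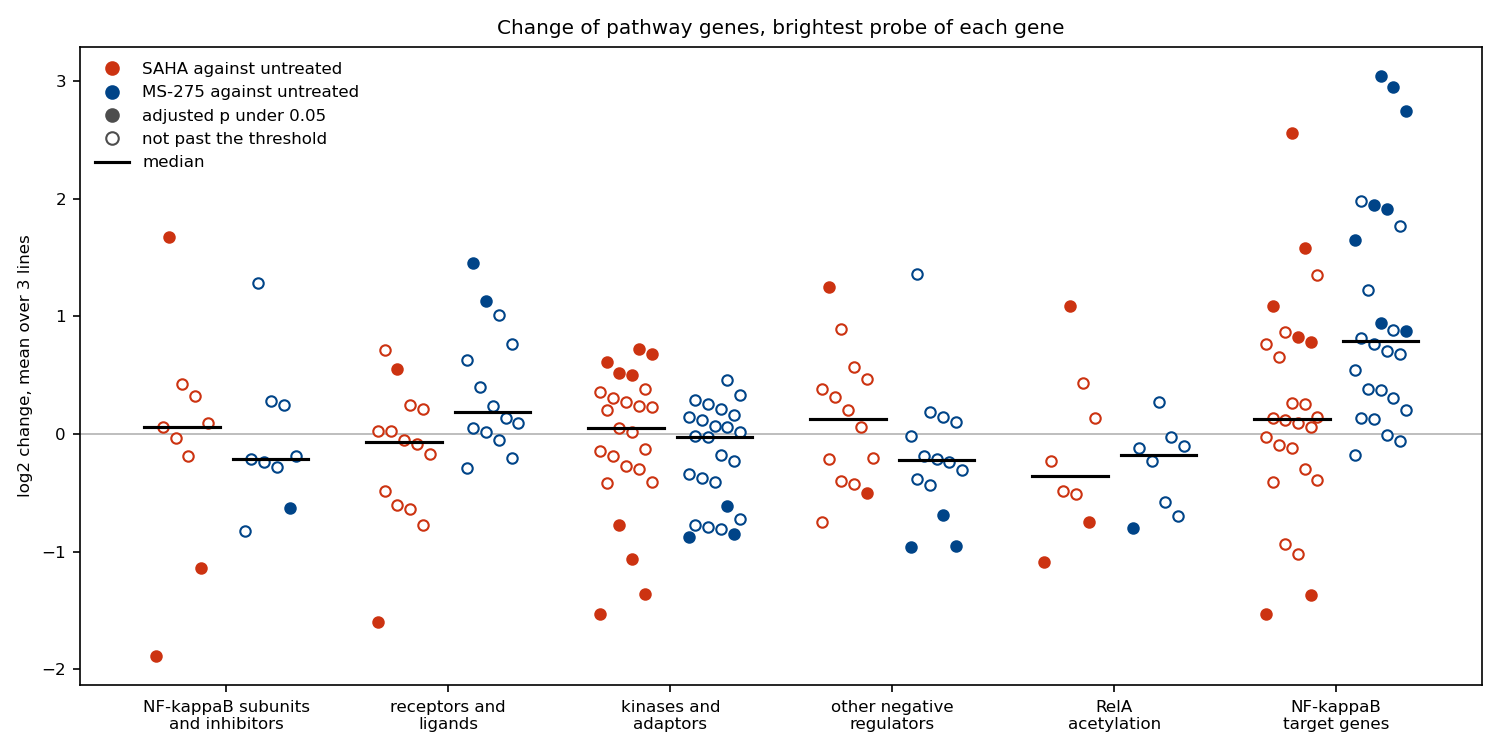
Log2 change against untreated cells (y axis, mean over 3 lines) of the tested genes of the members and of each pathway list (x axis), 1 point per gene by its brightest probe, in red for SAHA and blue for MS-275. Filled points passed the adjusted threshold and bars are medians, which for target genes are 0.13 with SAHA and 0.79 with MS-275.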

How the data were processed

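RNA of 9 samples, 3 lines with each of 3 treatments, had been labelled with biotin and read on 1-colour Illumina bead arrays, per the labels' protocols. The authors deposited the bead intensity of each probe, neither background-corrected nor normalized as the values show, with array medians of 104.3 to 138.6, and a detection p-value per intensity, deposited in steps of 1/708. They also deposited log2 values, for which the submitters' processing notes name lumi without a version, and these differed from quantile-normalized log2 intensities by at most 5e-09 and hold no background correction. The tables were linked by each probe's ranks on the 9 arrays, for all 22177 probes. The platform's annotation named 19708 probes, and 2469 were unnamed here.

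Intensities were corrected with limma's nec (offset 16), then quantile-normalized, and log2 was taken. Probes detected on at least 3 of 9 arrays were tested one by one with limma 3.58.1 in R 4.3.3, with terms for cell line and treatment over all 9 arrays (4 residual degrees of freedom), with Benjamini-Hochberg adjustment. The median SE of the SAHA change was 0.17, and the number of arrays limits the precision. The script was tested on simulated data. Each probe of a member was used, and list genes were taken by their brightest probe. Arrays are paired by cell line, and not by number, since every array is labelled as replicate 1. Deviations from the treatment means correlated at 0.866 to 0.934 between arrays of the same line (9 pairs) and at −0.694 to −0.156 between lines (27 pairs).

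A dim probe's bound is the bright group's mean over the dim group's mean of, per array, the higher of the probe's own signal and the lowest detected signal. Every member probe is named, and from each list up to 4 passing genes each way per comparison, plus those that small counts need. The members and lists were chosen with earlier results of these data known. Alternatives changed the background correction, scaling, detection filter, probe choice, line block, arrays in the fit, the prior and the lines included. Slides and dates are not given, and batches were not tested. Whether the cultures of a line were grown separately is not stated. With line and treatment both in the model, p-values measure how far the treatment differences vary between lines, and not the spread between repeat cultures.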

Additional observations from a re-analysis of the deposited data

How the results depend on the processing

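The SAHA changes of NFKB1 and NFKB2 passed in 11 of 12 alternatives each (log2 −2.20 to −1.53 and 1.20 to 1.96), and NFKBIA in 10 of 12. The exception for all 3 was the model without the cell line as a block, in which arrays of one line are not paired. RELA with MS-275 passed in 6 of 12 alternatives, and NFKB2 between NB4 and U937 in 4 of 10. With no replicate block, 98 of 13836 probes passed with SAHA, 2 with MS-275 and 65 between the compounds, and 0 of the 10 member probes passed in each comparison (limma, 3, 0 and 3 members at an unadjusted p under 0.05). Each line has every treatment once, so the block cannot change an estimate. Fits of only the 2 groups compared called 819 probes with MS-275 and 0 members (4 at an unadjusted p under 0.05), and 2119 probes between the compounds. Equal medians called 2611 probes with MS-275 and 3 members, all lower. Its splits of higher and lower probes were 1185 and 2168 with SAHA, 423 and 2188 with MS-275, and 1931 and 1051 for SAHA over MS-275. Probes detected on all 9 arrays gave 2 members with MS-275, and 4864 probes between U937 and K562. Between NB4 and U937, 3 members passed without background correction, with an offset of 50, with no detection filter and with all 9 arrays detected, where NFKB2 and BCL3 were lost in the first 3 settings and BCL3 and an NFKBIB probe were not tested in the last. Leaving out NB4, K562 or U937 gave 1085, 1995 and 1216 probes with SAHA, 0 to 265 with MS-275 (limma, 2958 at an unadjusted p under 0.05 at the count of 0) and 1055, 2100 and 550 between the compounds, with 2 to 3, 0 to 1 and 2 to 4 members. Leaving out a treatment gave 4041 to 4963 probes and 3 to 4 members for NB4 against U937, and 5 to 9 members for U937 against K562. Signs turned only for members that did not pass: without U937, TNFAIP3 (−0.20), BCL3 (−0.15) and both NFKBIB probes (0.13 and 0.029) with SAHA and BCL3 (−0.10) with MS-275, without K562, RELB with SAHA (−0.087), and without NB4, NFKBIE with MS-275 (0.068). Between NB4 and U937, NFKB1 was −0.013 and RELA −0.032 with equal medians, and with 1 treatment left out NFKB1 ranged from −0.11 to 0.16 and RELA from −0.029 to 0.11. Fewer arrays in a fit leave fewer degrees of freedom, and other causes were not tested. The pathway lists were put through the same alternatives after the data had been seen. With SAHA, negative regulators called were 4 with no detection filter and 1 with the trend prior or in a fit of 2 groups, and receptors and ligands 1 with an offset of 50, with no detection filter, with all 9 arrays detected or in a fit of 2 groups. With no replicate block each list had at most 1 gene called by limma, with 0 to 6 genes at an unadjusted p under 0.05. RELB, BCL3, REL and the NFKBIB probe ILMN_1674152 were not detected on all 9 arrays, which limits what their values show.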
